A study of Mus musculus with 16 samples.

Results

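Foxa1, Foxa2 and Foxa3 were compared by where each was listed as bound, 30 days after mouse embryonic fibroblasts (MEFs) had been infected with one of them. Chromatin immunoprecipitation followed by sequencing (ChIP-seq) gave 1 list of peaks per factor, and the 3 day 30 Foxa lists, picked by the factor and day in their labels, held 3770 of the 4839 peaks of the series. Peaks that overlapped by at least 1 bp were merged into 3427 regions, and each region was assigned to 1 of the 7 possible combinations of factors. The MEFs were C57BL/6 cells from embryos of 13.5 days post coitum. They were infected with Foxa1, Foxa2 or Foxa3 alone, and each sample was precipitated with an antibody to the factor it had received. All samples share the MEF origin and the infection. The vector, the level of each transduced protein and whether any culture came from 1 clone are not given in the sources used here. The series has 16 samples, of which 8 are ChIP samples (the 3 Foxa factors and Hnf4a on days 2 and 30) and the others inputs, which were not analysed here.

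The 3 proteins are paralogues of the forkhead family, made by separate genes. Their DNA-binding domain, a winged helix, is nearly the same in all of them, so that they recognise closely similar DNA, while the rest of the proteins differs more. Foxa proteins are known as pioneer factors, able to bind their sites in compacted chromatin, and they act in the development and function of the liver, where hepatocytes express all of them. Any of them, given together with the nuclear receptor Hnf4a, is known to turn fibroblasts into hepatocyte-like cells.

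With 1 sample per factor, no value carries an error between samples, and no test between factors was made. Factor, antibody, culture and library cannot be told apart here. The lists do not give the read depth, which is unknown, and sites that a list lacks may still have been bound. The intervals beside shares are 95% Clopper-Pearson intervals (exact, for counting error only). Positions are on mouse build mm9.

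The 3 lists differed in length and in the width of their peaks. Foxa1 had 3331 peaks, Foxa3 265 and Foxa2 174. Foxa2 peaks were the narrowest, with a median of 78.5 bp and a range of 60 to 365 bp. Foxa1 peaks had a median of 119 bp and ranged from 76 to 1934 bp. Foxa3 peaks had a median of 237 bp and ranged from 175 to 900 bp, so the shortest Foxa3 peak was wider than the median peak of either other list. This lower limit belongs to the day 30 list: Foxa3 peaks of day 2 had a median of 78.5 bp and a shortest peak of 49 bp. The widths thus describe single lists, and what sets them was not tested. The lowest deposited score was 5.08 in each of the 3 lists, while the highest reached 107.1 in the Foxa1 list, 33.6 in the Foxa2 list and 32.8 in that of Foxa3. The score is the authors' own number for each peak. Its levels are not compared between lists, since depth is unknown. It serves to order peaks within a list, to describe pairs of overlapping peaks and, among the alternatives, to filter all lists at 1 threshold.

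Most regions held Foxa1 and nothing else, and no region held Foxa2 and Foxa3 without Foxa1. Foxa1 alone made up 3030 of the 3427 regions (88.4%, interval 87.3 to 89.5%). Foxa1 and Foxa3 shared 143 regions (4.17%), Foxa1 and Foxa2 shared 112 (3.27%), and all 3 factors were listed at 38 (1.11%, 0.786 to 1.52%). There were 84 regions of Foxa3 alone (2.45%) and 20 of Foxa2 alone (0.584%). The count of 0 for Foxa2 with Foxa3 alone allows a share of up to 0.0875%, where the limit for a count of 0 is taken here and below as 3 counts of the total (the exact interval ends at 0.108%). In other words, each of the 38 regions that joined Foxa2 and Foxa3 also held a Foxa1 peak, and 3323 regions (97.0%) held one in all. This count of 0 depends on the long Foxa1 list. With each list reduced to its 174 highest-scoring peaks, 9 regions held Foxa2 and Foxa3 without Foxa1, and 22 held all 3.

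**Figure D1:**
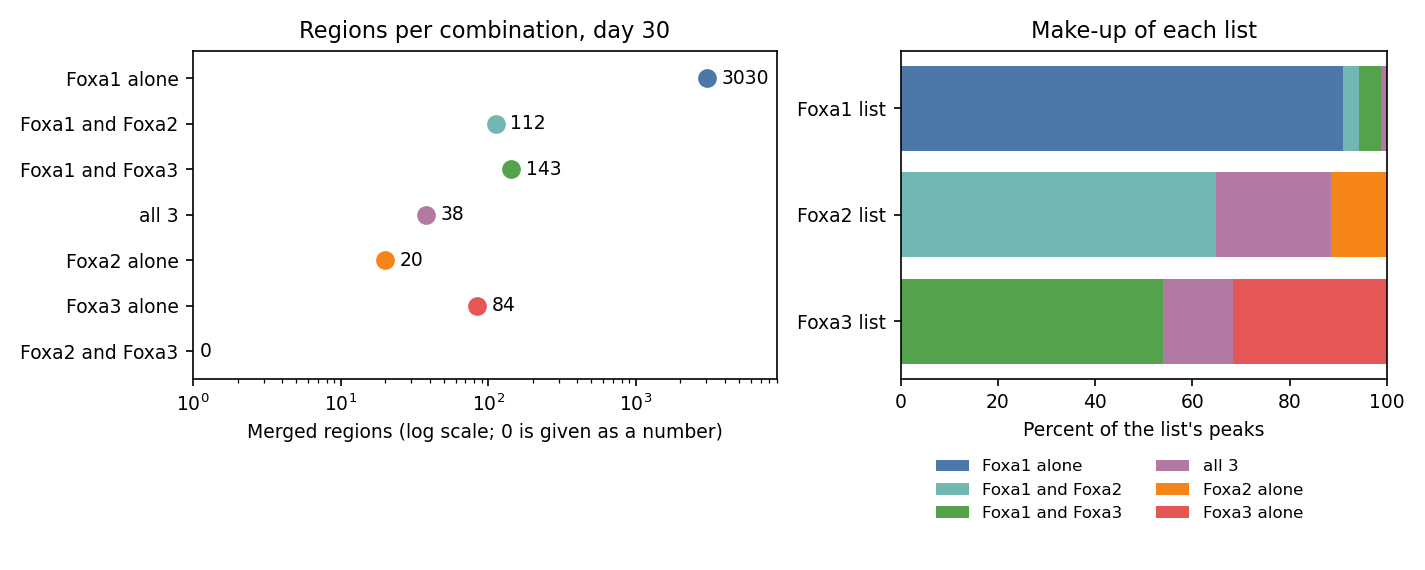
Left, the number of merged day 30 regions (log axis) in each of the 7 combinations of Foxa1, Foxa2 and Foxa3. Foxa1 alone stands far to the right with 3030 regions, and the combination of Foxa2 and Foxa3 is empty. Right, the peaks of each list in percent, split by the combination they fall in; the Foxa1 list is 91.0% Foxa1 alone, while the Foxa2 and Foxa3 lists are mostly shared with Foxa1.

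The shorter lists were split differently. Of the 174 Foxa2 peaks, 113 (64.9%, 57.4 to 72%) lay in regions with Foxa1 only, 41 (23.6%) in regions of all 3 and 20 (11.5%, 7.16 to 17.2%) in regions of Foxa2 alone. Of the 265 Foxa3 peaks, 143 (54%, 47.8 to 60.1%) lay with Foxa1 only, 38 (14.3%) with both and 84 (31.7%, 26.1 to 37.7%) apart from both. In these 2 lists, the share of peaks that neither other list held was 31.7% for Foxa3 and 11.5% for Foxa2. With every peak set to a 200 bp window around its centre, 86 regions were of Foxa3 alone and 21 of Foxa2 alone. With 174 peaks per list the counts lay much closer, at 119 of Foxa3 alone and 94 of Foxa2 alone. Seen from the Foxa1 list, 150 of 3331 peaks (4.50%) overlapped a Foxa2 peak and 189 (5.67%) a Foxa3 peak.

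Foxa2 and Foxa3 peaks of high and low score overlapped Foxa1 at shares whose intervals overlap widely. Foxa2 peaks above their list's median score overlapped Foxa1 in 77 of 86 cases (89.5%, 81.1 to 95.1%), and the others in 77 of 88 (87.5%, 78.7 to 93.6%). For Foxa3 the numbers were 89 of 129 (69.0%, 60.3 to 76.8%) and 92 of 136 (67.6%, 59.1 to 75.4%). Overlap between the 2 short lists differed by score when counted from Foxa3, but hardly when counted from Foxa2. Foxa2 peaks above their median score overlapped Foxa3 in 20 of 86 cases (23.3%, 14.8 to 33.6%), and the others in 19 of 88 (21.6%, 13.5 to 31.6%). Counted from Foxa3, 27 of 129 peaks above the median score (20.9%, 14.3 to 29.0%) overlapped Foxa2, against 10 of 136 at or below it (7.35%, 3.58 to 13.1%). Foxa3 peaks above the median were also wider, with a median of 269 bp against 211 bp.

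The Foxa1 peaks that the paralogues shared stood high in the Foxa1 list. The 100 highest-scoring Foxa1 peaks already reached 45 of the 174 Foxa2 peaks (25.9%) and 40 of the 265 Foxa3 peaks (15.1%). The first 500 reached 118 Foxa2 peaks (67.8%) and 112 Foxa3 peaks (42.3%), and the first 1000 reached 131 (75.3%) and 140 (52.8%). All 3331 together reached 154 (88.5%) and 181 (68.3%), so the first 1000 had reached most of the peaks that overlapped Foxa1 at all. Among the 100 highest Foxa1 peaks, 43 overlapped Foxa2 and 40 overlapped Foxa3, so that each short list lacked more of them than it held.

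The Foxa1 peak was wider and scored higher the more paralogues were listed with it. At regions of Foxa1 alone its median width was 116 bp (quartiles 90 and 159 bp) and its median score 10.2. At regions shared with Foxa2 the median Foxa1 peak was 162 bp wide with a score of 20.4, and at those shared with Foxa3 it was 210 bp wide with a score of 17.3. At regions of all 3 the median was 335.5 bp and 25.3. All 38 Foxa1 peaks there lay above the median of the Foxa1 list, and 32 of them (84.2%) lay in its highest 10%, against 199 of 3030 (6.57%) of the Foxa1 alone peaks. The groups nevertheless overlap widely, since single Foxa1 alone peaks reached a width of 953 bp and a score of 56.5. Wide peaks can meet others more easily, and the part of width in the sharing was not tested.

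Foxa2 and Foxa3 peaks varied less between combinations in their medians. Foxa2 peaks had a median width of 97 bp in regions of all 3, 78 bp in regions with Foxa1 only and 70.5 bp alone. Their median scores were 8.77, 8.0 and 7.79, but the upper quartiles were 11.3, 10.03 and 13.96. Of the Foxa2 alone peaks, 6 of 20 (30%) stood in the highest 10% of the Foxa2 list, against 4 of 41 (9.76%) in regions of all 3 and 8 of 113 (7.08%) with Foxa1 only. Of those 6, the 4 at ranks 10, 11.5, 16 and 16 overlapped an Hnf4a day 2 peak, as described below. Foxa3 peaks had a median width of 257 bp in regions of all 3, 224 bp with Foxa1 only and 256.5 bp alone, and median scores of 12.4, 9.94 and 10.1. Foxa3 alone peaks thus had medians a little above those of the peaks shared with Foxa1 only, and they included the widest Foxa3 peaks, up to 900 bp against 451 and 422 bp in the shared combinations.

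**Figure D2:**
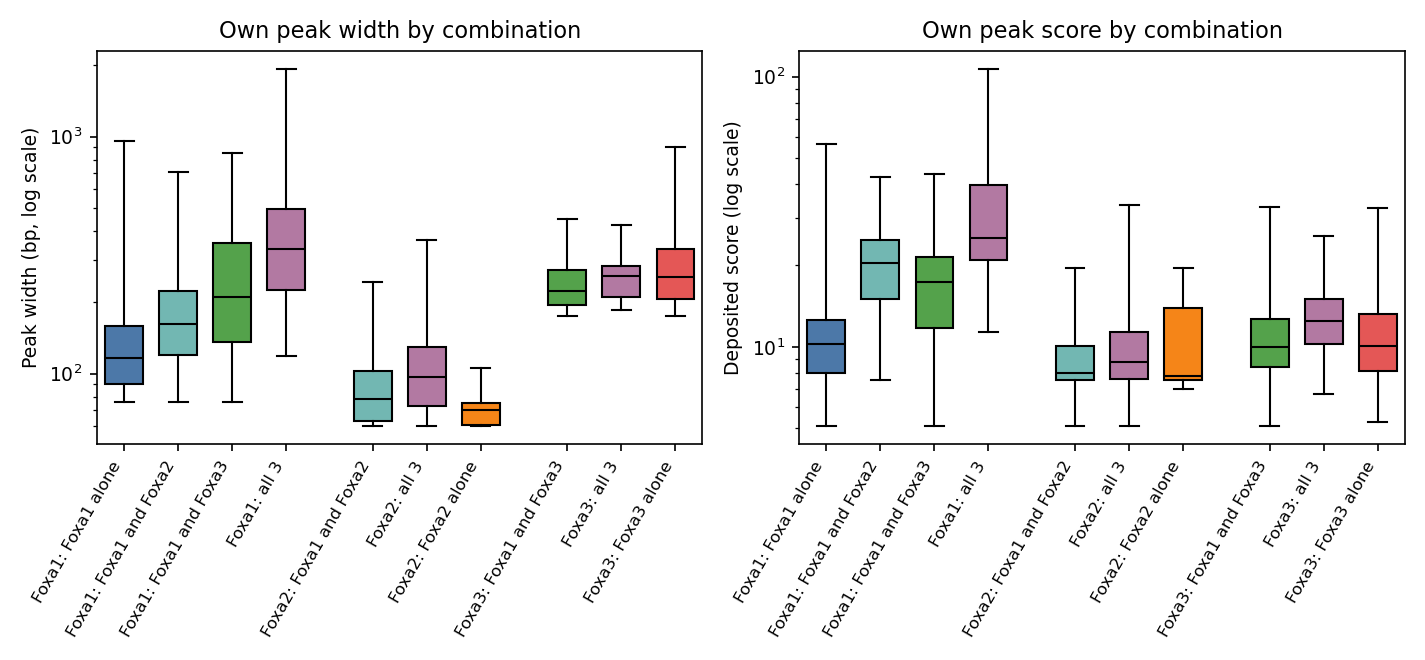
Width in bp (left, log axis) and the authors' score (right, log axis) of the peaks of each factor, by the combination of their region. Boxes span the quartiles, the line is the median, and whiskers reach the lowest and highest peak. The Foxa1 boxes climb from 116 to 335.5 bp at the median as paralogues are added, while the boxes differ less within the Foxa2 list and within the Foxa3 list.

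Merged regions were widest where all 3 factors were listed and narrowest for Foxa2 alone. The median region was 70.5 bp for Foxa2 alone (60 to 106 bp), 116 bp for Foxa1 alone (76 to 953 bp) and 176 bp for Foxa1 with Foxa2 (91 to 709 bp). It was 256.5 bp for Foxa3 alone (175 to 900 bp), 296 bp for Foxa1 with Foxa3 (175 to 854 bp) and 336.5 bp for all 3 (203 to 1934 bp). Regions with a Foxa3 peak cannot be shorter than 175 bp, which enters their medians. A merged region spans all its peaks, so it is at least as wide as its widest peak. The order of the medians thus depends in part on how the regions were formed. Foxa1 alone covered 418.5 kb in all, against 26.1 kb for Foxa3 alone and 1.43 kb for Foxa2 alone. The shared combinations covered 22.4 kb for Foxa1 with Foxa2, 47.9 kb for Foxa1 with Foxa3 and 18.3 kb for all 3.

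Where 2 paralogues overlapped, their peaks were centred close to each other. Only overlapping pairs were measured, so the widths of the 2 peaks limit how far apart their centres can lie. Foxa2 and Foxa1 formed 154 overlapping pairs of peaks with a median distance between centres of 26.25 bp, and 115 pairs (74.7%) lay within 50 bp. In 113 pairs (73.4%) the Foxa2 peak lay wholly inside the Foxa1 peak, and Foxa1 was the wider peak in 142. Foxa3 and Foxa1 formed 189 pairs with a median distance of 41.5 bp, 108 of them (57.1%) within 50 bp. Neither was regularly the wider one there: Foxa3 was wider in 96 pairs and Foxa1 in 93, and 84 pairs (44.4%) overlapped only in part. Foxa2 and Foxa3 formed 39 pairs with a median distance of 44 bp, and Foxa3 was wider in 38 of them. Of the 38 regions of all 3, 37 had bases covered by all 3 lists. In the remaining region no base was in all 3.

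Merging rarely joined several peaks of 1 list. A single region of Foxa1 with Foxa2, on chromosome 19 (41922579 to 41922797), joined 3 peaks, as 2 Foxa2 peaks overlapped 1 Foxa1 peak. In 8 of the 143 regions of Foxa1 with Foxa3, a single Foxa3 peak spanned 2 separate Foxa1 peaks. They ranged in width from 291 bp on chromosome 5 (130689314 to 130689604) to 604 bp on chromosome 9 (61656264 to 61656867). In 3 regions of all 3, 4 peaks were joined, the widest of them on chromosome 4 (3733814 to 3735165). Over the overlapping pairs, Spearman's rho between both scores was 0.43 for Foxa2 with Foxa1 (154 pairs), 0.24 for Foxa3 with Foxa1 (189 pairs) and -0.05 for Foxa2 with Foxa3 (39 pairs). These are descriptions across sites of the same libraries, in which each score also depends on its library's depth and on shared background at the site.

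The regions of all 3 factors included the strongest Foxa1 peaks. By the mean of the ranks within each list, the first was on chromosome 4 (41577181 to 41577727), with rank 5 in the Foxa1 list, a score of 25.7 for Foxa3 and of 12.5 for Foxa2. It was also in the day 2 lists of all 3 factors. The next was on chromosome 17 (35848391 to 35849101), which held the highest Foxa1 score of the list, and scores of 14.5 for Foxa2 and 16.0 for Foxa3. The third, on chromosome 10 (86307389 to 86309322), was the widest region of any combination at 1934 bp and ranked second for both Foxa1 and Foxa2. All 3 were listed for Foxa1 on day 2.

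Among regions of Foxa1 with 1 other paralogue, the leading ones ranked high in both lists. For Foxa1 with Foxa2 they were on chromosome 2 (152223801 to 152223959; scores 34.1 for Foxa1 and 16.2 for Foxa2), chromosome 1 (36568510 to 36568647; 31.4 and 19.6) and chromosome 11 (98612222 to 98612415; 42.7 and 10.3). The first of these was listed for Foxa2 but not for Foxa1 on day 2, and the third the other way round. The widest such region, of 709 bp, was on chromosome 1 (138836112 to 138836820). For Foxa1 with Foxa3 they were on chromosome 9 (61752051 to 61752355; 43.7 for Foxa1 and 21.6 for Foxa3), chromosome 4 (56114960 to 56115803; 27.0 and 32.8) and chromosome 14 (99695293 to 99695551; 32.8 and 13.5). Each of these 3 was in the Foxa1 day 2 list and in no Foxa3 or Foxa2 day 2 list. The widest, of 854 bp, was on chromosome 9 (116297961 to 116298814).

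Single-factor regions could also score high within their own list. The highest Foxa1 alone peaks held ranks 4, 8 and 12 of the Foxa1 list, on chromosome 16 (93591701 to 93591938, score 56.5), chromosome 6 (113960811 to 113961763, score 51.6) and chromosome 4 (63624629 to 63624792, score 43.6). The nearest Foxa2 or Foxa3 peak was 35905 kb away from the first, 5377 kb from the second and 1163 kb from the third. All 3 were listed for Foxa1 on day 2, and the one on chromosome 6 was the widest of its combination. The Foxa2 alone regions with the best rank were on chromosomes 4 (28264149 to 28264218) and 7 (15005999 to 15006069), which shared a score of 19.6, and on chromosome 12 (45166376 to 45166448, score 15.3). The widest Foxa2 alone region, on chromosome 19 (45121842 to 45121947), was 106 bp long. The Foxa3 alone regions with the best rank held ranks 2, 3 and 4 of the Foxa3 list. They were on chromosome 12 (55839093 to 55839773, score 32.7), chromosome 11 (87236219 to 87236808, score 30.1) and chromosome 12 again (55811156 to 55811844, score 29.1).

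Regions of 1 short list alone mostly lay far from any peak of the paralogues. Of the 20 Foxa2 alone regions, none lay within 1 kb of a Foxa1 or Foxa3 peak, 2 lay within 10 kb, and the median distance was 378.7 kb (5.48 to 2646 kb). Of the 84 Foxa3 alone regions, 7 lay within 500 bp (8.33%, 3.42 to 16.4%), 14 within 10 kb, and the median was 190.5 kb. These medians are equal to those measured to Foxa1 peaks only. The nearest Foxa3 peak lay at a median of 4701 kb from Foxa2 alone regions, and the nearest Foxa2 peak at 3780 kb from Foxa3 alone regions. Such distances depend on list length: with 174 peaks per list the medians were 3308 kb for Foxa2 alone and 2582 kb for Foxa3 alone.

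**Figure D3:**
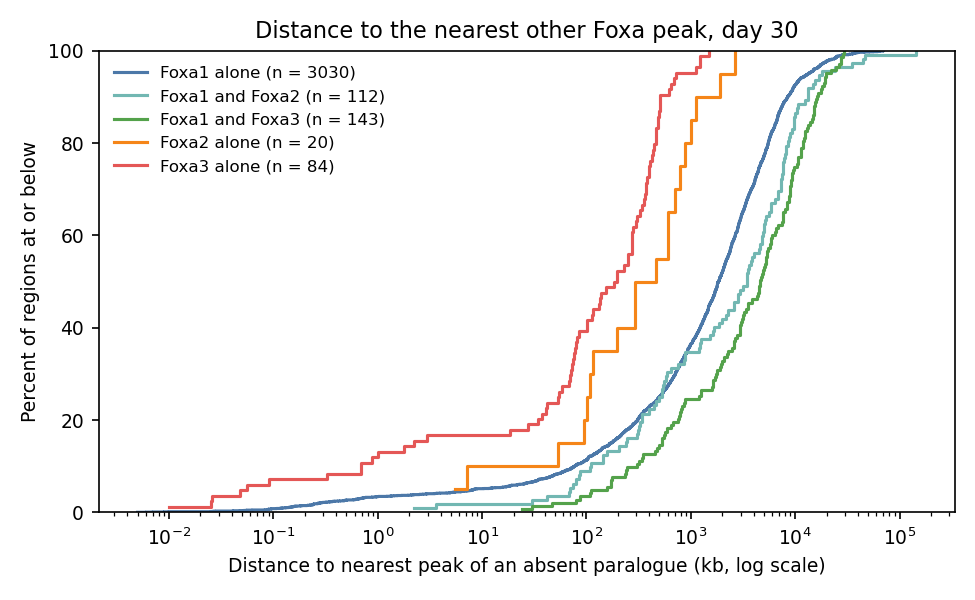
Cumulative percent of regions (y axis) whose nearest peak of a paralogue absent from them lies within a given distance (x axis, kb, log scale), by combination. The Foxa3 alone curve starts at 0.01 kb and reaches its median at 190.5 kb, the Foxa2 alone curve at 378.7 kb, and the combinations with Foxa1, whose absent paralogues have short lists, at 1844 kb or more.

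Close neighbours were found mainly beside shared regions. Of the 3030 Foxa1 alone regions, 80 (2.64%) lay within 500 bp of a Foxa2 or Foxa3 peak, and for 73 of them that peak lay in a region with another Foxa1 peak. Most peaks of both short lists lay in such regions anyway: 88.5% of all Foxa2 peaks and 68.3% of all Foxa3 peaks overlapped Foxa1. Of the 293 regions that Foxa1 shared, 62 had a Foxa1 alone region within 500 bp. All 80 close regions together were 104.5 bp wide at the median and scored 8.98, while the other Foxa1 alone regions had medians of 116 bp and 10.2. All 25 Foxa1 alone regions within 100 bp were next to a Foxa3 peak. The median distance of all Foxa1 alone regions was 1844 kb. For Foxa1 with Foxa2 the nearest Foxa3 peak was at a median of 3461 kb, and for Foxa1 with Foxa3 the nearest Foxa2 peak was at 4607 kb. None of the regions of either pair was within 1 kb of the third factor.

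Foxa1 alone regions were spread over the autosomes about as their length, with few on the X chromosome. Regions of Foxa3 alone, and those of either pair with Foxa1, were most numerous on chromosome 11. Chromosome length was read as the last peak end over the 8 lists. Foxa1 alone regions were found on all 20 chromosomes at 103.7 (chromosome 15) to 152.6 (chromosome 10) per 100 Mb of autosome, with 16.2 per 100 Mb on the X chromosome, where it had 27 regions (0.891% against 6.35% of the length). Foxa1 with Foxa2 and Foxa1 with Foxa3 also reached all 20 chromosomes, with 1 region each on X. Regions of all 3 lay on 18 chromosomes, at most 4 on any, on chromosome 13.

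Foxa3 alone had 14 of its 84 regions on chromosome 11 (16.7%, 9.42 to 26.4%), which holds 4.64% of the length and 5.78% of all merged regions. Chromosomes 12 and 13 followed with 9 and 8, and chromosomes 8 and X had none. Without the runs of neighbouring Foxa3 peaks described next, the share on chromosome 11 was 10.4%. Foxa2 alone had 5 of its 20 regions on chromosome 14 (25%, 8.66 to 49.1%), which holds 4.76% of the length. These 5 lay far apart, at 15950729, 23641780, 38223627, 59486228 and 70703105.

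**Figure D4:**
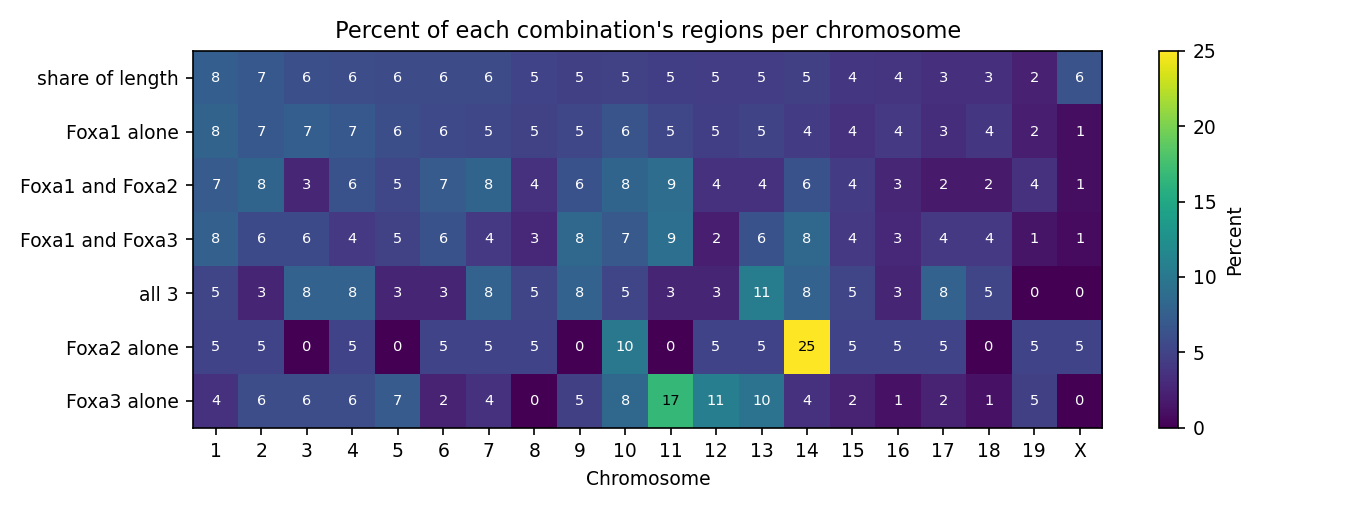
Percent of the regions of each combination that lie on each chromosome, with the chromosome's share of the length in the top row; each row adds up to 100% before rounding. Foxa1 alone follows the length only roughly on the autosomes (6.47% against 4.89% on chromosome 10) and is low on X (0.891% against 6.35%). Foxa3 alone is raised on chromosome 11 (16.7%) and Foxa2 alone, with 20 regions, on chromosome 14 (25%). Foxa1 with Foxa2 (8.93%) and Foxa1 with Foxa3 (9.09%) also have their highest share on chromosome 11, close to their next highest shares (8.04% and 8.39%).

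Some Foxa3 alone regions, 17 of 84, lay in runs, and the other 67 did not. Foxa3 peaks chained over gaps of up to 20 kb formed 4 runs of 3 or more peaks, and all 17 peaks in them were Foxa3 alone. A region of its own kind lay within 20 kb for 25 of 84 Foxa3 alone regions (29.8%) and 935 of 3030 Foxa1 alone regions (30.9%). A larger set has more such neighbours, so these 2 shares are not comparable. In sets nearer in size to Foxa3 alone, it was 8 of 112 for Foxa1 with Foxa2 and 0 of 143 for Foxa1 with Foxa3. One run, on chromosome 12 (55797677 to 55839773), held 6 peaks with scores from 6.91 to 32.7. On chromosome 11, one (87262177 to 87285203) held 3 peaks and another (101488561 to 101519972) held 4 peaks, each of 501 bp or wider. The fourth, on chromosome 10 (24315196 to 24319679), held 4 peaks within 4.48 kb, including the widest Foxa3 peak of 900 bp. Hnf4a peaks of day 30 lay in the run on chromosome 12 (1 peak) and in those on chromosome 11 (1 and 2 peaks). The run on chromosome 10 held 0. No Foxa1 or Foxa2 peak of day 30 and no Foxa1 peak of day 2 lay between the ends of any run. By contrast, the 1 such run of Foxa2 peaks held 3 peaks, all shared with Foxa1. The choice to describe runs was made after the values were seen. The split into regions inside and outside runs depends on the limits of 20 kb and 3 peaks. Regions outside still include some with close neighbours. The one on chromosome 11 at 87236219 to 87236808 counted as outside, although the run that starts at 87262177 is near it.

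The other 5 lists of the series were not used to form the combinations and were set beside them. Of all 3427 regions, 8.64% overlapped a Foxa1 day 2 peak, 0.525% a Foxa2 day 2 peak and 0.671% a Foxa3 day 2 peak, while 0.117% overlapped Hnf4a on day 2 and 0.204% Hnf4a on day 30. The share also listed for Foxa1 on day 2 was higher where more paralogues were listed on day 30. It was 198 of 3030 for Foxa1 alone (6.53%, 5.68 to 7.47%), 34 of 112 with Foxa2 (30.4%, 22.0 to 39.8%), 40 of 143 with Foxa3 (28.0%, 20.8 to 36.1%) and 22 of 38 for all 3 (57.9%, 40.8 to 73.7%). The Foxa1 score moved with this order. Among regions in the highest 10% of Foxa1 scores, the shares were 32.7% of 199 for Foxa1 alone (26.2 to 39.7%), 43.5% of 62 with Foxa2 (31.0 to 56.7%), 45% of 60 with Foxa3 (32.1 to 58.4%) and 68.8% of 32 for all 3 (49.99 to 83.9%). There the intervals of Foxa1 alone and of either pair overlap, and that of all 3 lies above that of Foxa1 alone. Below this 10%, Foxa1 alone had 133 of 2831 (4.70%, 3.95 to 5.54%), Foxa1 with Foxa2 had 7 of 50 (14%, 5.82 to 26.7%) and Foxa1 with Foxa3 had 13 of 83 (15.7%, 8.61 to 25.3%). Here the shares of both pairs were above that of Foxa1 alone, while all 3 had 0 of 6. The intervals cover counting error within single libraries, so whether they overlap is no test between combinations. The median Foxa1 score within this 10% still ran from 21.5 for Foxa1 alone to 29.9 for all 3. Below it, the median was 10.2 for Foxa1 alone, 13.9 with Foxa2 and 12.6 with Foxa3. Median region widths there were 113, 143.5 and 269 bp, so the groups were equal in neither score nor width. The part of score and width in these shares was not tested.

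Most regions listed for Foxa3 on day 2 were Foxa3 alone on day 30. Of the 23 regions that overlapped a Foxa3 day 2 peak, 19 were Foxa3 alone, 2 were Foxa1 with Foxa3 and 2 held all 3. This is 22.6% of the 84 Foxa3 alone regions (14.2 to 33.0%), against 1.40% of the 143 shared with Foxa1 (0.170 to 4.96%). None of the 84 overlapped a Foxa1 day 2 peak, which allows a share of up to 3.57%, and none overlapped Foxa2 on day 2. Much of the early listing lay in the runs: 12 of 17 regions inside them (70.6%, 44.0 to 89.7%) and 7 of 67 outside (10.4%, 4.30 to 20.3%) were in the Foxa3 day 2 list. The run of 4 peaks on chromosome 10 had none, and the other runs had 5 of 6, 4 of 4 and 3 of 3. These 19 were wide and strong for their list, at medians of 433 bp and a score of 16.9, where the other Foxa3 alone regions had 235 bp and 9.32. Of the 7 regions that overlapped Hnf4a on day 30, 5 were Foxa3 alone, 2 of them in the runs.

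For Foxa2, all 18 regions listed on day 2 held Foxa1 on day 30, near the 97.0% of all 3427 regions that held it. None of the 20 Foxa2 alone regions was listed for Foxa2 on day 2, which allows up to 15%. The share was 7 of 112 with Foxa1 (6.25%, 2.55 to 12.5%) and 5 of 38 for all 3 (13.2%, 4.41 to 28.1%), both below that limit. Another 3 of the 18 regions listed early for Foxa2 were Foxa1 with Foxa3, and 3 were Foxa1 alone. Of the Foxa2 alone regions, 2 were in the Foxa1 day 2 list, on chromosome 14 (70703105 to 70703164) and chromosome 16 (11144165 to 11144225), so Foxa1 had been listed there early but not late.

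**Figure D5:**
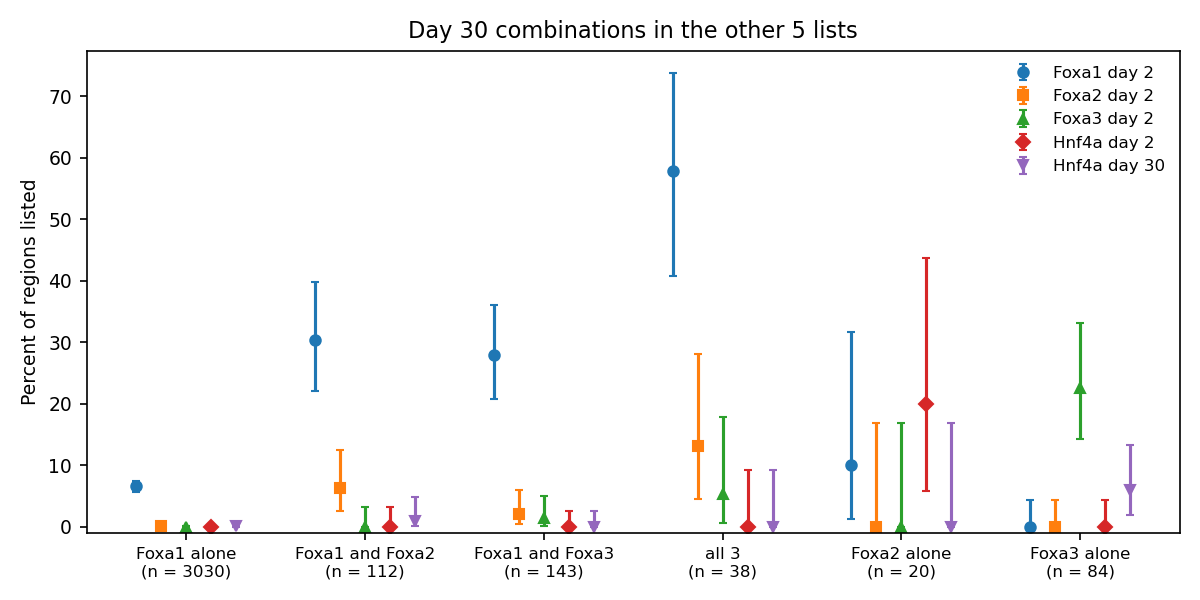
Percent of the regions of each day 30 combination (x axis, with their number) that overlap a peak of the 5 other lists; bars are exact 95% intervals for counting error. Foxa1 day 2 climbs to 57.9% at the regions of all 3, Foxa3 day 2 is highest at Foxa3 alone (22.6%), and Hnf4a day 2 appears only at Foxa2 alone (20%).

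An overlap between Foxa2 alone and Hnf4a was picked out after its values were seen. The Hnf4a day 2 list holds 10 peaks, and 4 of them (40%, 12.2 to 73.8%) overlapped a Foxa2 day 30 peak, each of which was Foxa2 alone. None of the 10 overlapped Foxa1 or Foxa3 on day 30, Foxa2 on day 2 or Hnf4a on day 30. The 4 regions are on chromosomes 12 (45166376 to 45166448), 14 (15950729 to 15950799), 2 (23657183 to 23657242) and X (159521401 to 159521470). Their Foxa2 peaks were 60 to 73 bp wide, the Hnf4a peaks 57 to 74 bp, and the centres lay 10.5, 3.5, 12.5 and 2.5 bp apart. In their own lists they stood high: Foxa2 scores were 15.3, 13.96, 13.96 and 14.96, and Hnf4a scores were 21.2, 19.1, 16.8 and 17.6. The 20 Foxa2 alone regions fell into 8 with scores of 12.7 or more and 12 with scores of 8.78 or less, and all 4 were among the 8. Without them, 16 regions of Foxa2 alone remained. That cultures given different factors, and precipitated with different antibodies, shared these narrow peaks was not examined further.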

How the data were processed

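ChIP-seq peak lists of MEFs infected with Foxa1, Foxa2 or Foxa3 were analysed, 1 list per factor on day 30, beside the day 2 lists and both Hnf4a lists. Tools named in the submitters' processing notes are MACS2 2.1.0, BWA 0.6.2 and bedtools 2.16.2, and the build is mm9, with no role or order given; the peak threshold and the use of the inputs are not given in the sources used here. Each deposited list gives chromosome, start, end and a score per peak, without a header. The score was taken as the authors gave it, and what it measures is not stated. No mm9 genome or annotation was used here, so no gene, motif or sequence is given, and the planned gene-list counts and protein comparison were not run.

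Peaks were merged where they overlapped by 1 bp or more, and distances run from edge to edge. Starts are printed 1-based. Python 3.11.15, NumPy 2.4.6, SciPy 1.17.1, pandas 2.3.3 and Matplotlib 3.10.9 were used, and merging, overlap and distance were checked on lists with planted combinations. The regions named were the 3 with the best mean rank of score in each combination, the widest and those that merged the most peaks, of which 2 of the 8 for Foxa1 with Foxa3 and 1 of the 3 for all 3 are printed; other named regions were chosen after their values were seen. The combinations and alternatives were chosen with earlier results of these data known.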

Additional observations from a re-analysis of the deposited data

How the results depend on the processing

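Over 38 values, 176 alternatives were computed; 130 stayed within the interval of the reported value (counts within 1.5 times), 17 moved up and 29 down. No region count moved under merging of touching peaks or of peaks within 500 bp, 200 bp windows, or without dense blocks of peaks or chromosome X. Dense blocks are chains of 10 or more peaks of all 8 lists pooled, with gaps of up to 20 kb. The 9 blocks held 11 regions of Foxa3 alone and 11 of Foxa1 alone. At scores of 10 or more, the regions were 1863 of Foxa1 alone, 34 with Foxa2, 86 with Foxa3, 11 of all 3, 8 of Foxa2 alone and 45 of Foxa3 alone. At 15 or more they were 633, 7, 25, 0, 3 and 20. With 174 peaks per list they were 82, 46, 24, 22, 94 and 119, and Foxa2 with Foxa3 had 9. The share of Foxa2 peaks on Foxa1 was 70% of 10 at scores of 15 or more and 40.8% at equal length; that of Foxa3 on Foxa1 was 55.6% and 26.4%. Foxa2 on Foxa3 was 0% at 15 or more, and Foxa3 on Foxa2 was 7.75% at 10 or more and 0% at 15 or more. These settings leave fewer peaks by construction.

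At scores of 10 or more, median region widths were 129 bp for Foxa1 alone, 344 bp for Foxa1 with Foxa3 and 302 bp for Foxa3 alone; with peaks within 500 bp merged, they were 119 bp for Foxa1 alone and 352.5 bp for Foxa1 with Foxa3. At equal length, median distances were 2117 kb for Foxa1 alone, 2766 kb for Foxa1 with Foxa3, 3308 kb for Foxa2 alone and 2582 kb for Foxa3 alone. The share listed for Foxa1 on day 2 was 9.60% of Foxa1 alone within 500 bp and 11.3% at scores of 10 or more, and 40.7% of Foxa1 with Foxa3 at that threshold. The share of Foxa3 alone listed for Foxa3 on day 2 was 37.8% at scores of 10 or more, 13.7% without dense blocks and 10.4% without the runs of Foxa3 peaks, an alternative chosen after seeing the data, as was the removal of Foxa2 peaks on Hnf4a day 2. The score thresholds act on lists of unknown depth, which limits every comparison of list lengths.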

Other observations

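Foxa1 peaks lay in runs as well. With gaps of up to 20 kb, 446 of the 3331 Foxa1 peaks (13.4%) formed 125 runs of 3 or more, against 17 of 265 Foxa3 peaks (6.42%) in 4 runs and 3 of 174 Foxa2 peaks (1.72%) in 1 run. Of the 446, 399 were Foxa1 alone, 32 were shared with Foxa3, 9 with Foxa2 and 6 with both. A longer list forms more runs, so these shares are not comparable between the lists. Another region of the same combination lay within 20 kb for 8 of 112 regions of Foxa1 with Foxa2 and for 0 regions of Foxa1 with Foxa3, of all 3 or of Foxa2 alone. The smallest gap between 2 peaks was 50 bp in the Foxa1 list, 60 bp in the Foxa2 list and 109 bp in the Foxa3 list.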
